A study of Mus musculus with 56 samples.

Results

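The peaks described here are the autosomal stretches of accessible chromatin that had a count in every library of the clone ATAC-seq experiment. ATAC-seq uses a transposase to cut and tag accessible DNA, so the number of counts in a peak reports how accessible that stretch was. The members were chosen by 1 measured value, a raw count of at least 1 in each of 56 libraries, and 3723 of 297361 peaks (1.25%), or 1.27% of the 292001 autosomal peaks, met it. Another 55 peaks on the X chromosome had a count in every library and are not members. Each peak is 301 bp wide, and the peak set came from other data than these libraries.

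Promoters of genes that most cells use are typically free of nucleosomes, rich in CpG dinucleotides and bound by general factors such as SP1, NFY, ETS proteins and NRF1, which recognise the GC box, the CCAAT box, CCGGAAG and GCGCATGC. Distal elements such as enhancers differ more between cell types and hold sites for lineage factors such as PU.1, C/EBP, RUNX and GATA proteins. TET2 is an enzyme that oxidises methylated cytosine, and its loss is common in clonal haematopoiesis. Unmethylated CpG islands are the usual setting of constitutive promoters.

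The libraries, of 1000 cells each, came from 28 clones of mouse granulocyte-monocyte progenitors immortalised by an oestrogen-dependent Hoxb8, which blocks their differentiation while 0.5 µM beta-estradiol is present. All clones came from a Tet2 fl/fl mouse. Each was divided into a Tet2 KO line, given Cre, and a control line, given GFP, both by integrase-deficient lentivirus at a multiplicity of infection of 200. GM-CSF (10 ng/ml) was used for 4 clones (19 to 22), giving 4 Tet2 KO and 4 control libraries, and SCF (100 ng/ml) for 24 clones (1 to 5, 7 to 18 and 23 to 29), giving 24 Tet2 KO and 24 control libraries. The titles of clones 20, 21 and 22 name SCF, whereas their treatment field and the design text name GM-CSF, and they were placed with GM-CSF. Each group is a set of immortalised single-cell clones with a single library per line. Its spread therefore holds differences between clones and between libraries, which cannot be told apart.

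Library totals decided much of the membership. Totals ran from 39379 to 468878 counts in GM-CSF Tet2 KO lines, from 88234 to 766838 in GM-CSF control lines, from 130049 to 1079233 in SCF Tet2 KO lines and from 102302 to 1042973 in SCF control lines. The shallowest libraries were the Tet2 KO lines of GM-CSF clones 20 (39379 counts) and 19 (40876 counts), in which the median member had 2 counts and 1266 and 1319 members had exactly 1. Of 2954 autosomal peaks that missed membership through 1 library alone, 1179 had no count in the Tet2 KO line of clone 19 only and 1036 in that of clone 20 only. Without the shallowest library 4759 peaks met the rule, and with a minimum of 2 counts 1487 did. A peak outside the set may therefore be as accessible as a member, and depth and detection cannot be told apart near the edge of the set.

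Over the members alone, most pairs of libraries of a group differed by more than counting noise, though the excess was small at this depth. In a chi-square test over members with 5 or more counts in a pair of libraries, the statistic per degree of freedom had a median of 1.09 over 564 pairs of the same group and a highest value of 1.71. That value, with clone 10, and the next, 1.68 with clone 12, both included the SCF control line of clone 3. For 95 of the 564 pairs p was above 0.05, and 63 of the 95 included a clone with a library below 50% of the median total. All clones were kept as separate replicates.

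The stretches printed first are those the results turn on, each from a member with at least 100 bases free of annotated exons. They are the promoter of highest level, the distal members of highest level with and without the CTCF consensus, and the largest rise and fall with Tet2 loss in SCF and with GM-CSF in control lines. Each is the plus strand of GRCm38 (mm10), 5′ to 3′, cut to at most 200 bases outside exons. Capitals mark matches to the searched motifs, on either strand.
Hjurp promoter: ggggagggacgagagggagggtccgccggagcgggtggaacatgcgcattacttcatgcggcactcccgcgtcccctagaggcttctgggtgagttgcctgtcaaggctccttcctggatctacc
Chd2 distal: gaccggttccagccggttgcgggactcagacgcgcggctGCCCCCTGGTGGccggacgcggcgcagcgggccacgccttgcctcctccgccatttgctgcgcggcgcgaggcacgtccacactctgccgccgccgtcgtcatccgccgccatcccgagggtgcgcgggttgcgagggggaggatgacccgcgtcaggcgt
Wnt7b distal: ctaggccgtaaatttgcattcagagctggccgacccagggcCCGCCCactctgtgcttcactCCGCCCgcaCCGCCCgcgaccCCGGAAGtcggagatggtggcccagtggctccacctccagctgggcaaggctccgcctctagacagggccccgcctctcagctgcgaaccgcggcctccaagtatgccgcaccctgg
Pkn2 promoter: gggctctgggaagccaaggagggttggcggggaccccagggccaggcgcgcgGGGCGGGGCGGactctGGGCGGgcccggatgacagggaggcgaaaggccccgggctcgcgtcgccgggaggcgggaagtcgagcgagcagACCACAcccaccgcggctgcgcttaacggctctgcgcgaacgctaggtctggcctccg
Surf6 promoter: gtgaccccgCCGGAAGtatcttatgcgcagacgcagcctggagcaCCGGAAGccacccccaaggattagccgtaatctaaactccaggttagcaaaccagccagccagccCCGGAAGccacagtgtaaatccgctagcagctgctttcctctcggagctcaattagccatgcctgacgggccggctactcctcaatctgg
Adssl1 intron: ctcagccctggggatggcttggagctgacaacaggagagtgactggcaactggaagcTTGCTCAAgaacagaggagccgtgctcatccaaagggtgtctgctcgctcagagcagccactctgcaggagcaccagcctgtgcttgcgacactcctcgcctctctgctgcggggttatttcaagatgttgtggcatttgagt
Psat1 distal: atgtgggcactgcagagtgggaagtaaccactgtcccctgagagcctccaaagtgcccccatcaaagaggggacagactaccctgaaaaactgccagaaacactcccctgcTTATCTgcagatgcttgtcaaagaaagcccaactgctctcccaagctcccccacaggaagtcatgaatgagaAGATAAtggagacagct
Their places are chr1:88277634-88277758 (Hjurp), chr7:73618476-73618675 (Chd2), chr15:85634574-85634773 (Wnt7b), chr3:142882067-142882266 (Pkn2), chr2:26902880-26903079 (Surf6), chr12:112629383-112629582 (Adssl1) and chr19:15837668-15837867 (Psat1). The Wnt7b stretch holds 3 GC boxes and 1 ETS site, the Pkn2 stretch 3 GC boxes and 1 RUNX site, and the Surf6 stretch 3 ETS sites. The Adssl1 stretch holds 1 C/EBP site and the Psat1 stretch 2 GATA sites. None of the searched motifs was found in the 125 bases from Hjurp.

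Members were mostly promoters. Of the 3723 members, 3233 (86.8%) were centred within 1000 bp of the transcription start site (TSS) of a protein-coding gene, against 8.25% of all peaks. Of all 24523 promoter peaks, 13.2% were members. A further 108 members lay at the TSS of a noncoding gene, and 382 (10.3%) lay over 1000 bp from any TSS, where 88.4% of all peaks lie and 0.145% were members. Of those 382, 190 were intergenic, 160 intronic, 18 in coding exons, 8 in untranslated exons and 6 in noncoding exons.

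Promoter members sat close to the TSS and on its upstream side. Their median centre was at −50 bp, 90.3% lay within 250 bp (59.9% of all promoter peaks) and 73.4% were upstream (50.3%). Divergent promoters, with protein-coding TSSs in both directions, made up 14.2% of promoter members (460 peaks) and 5.71% of all promoter peaks. In all, 3671 of the 16970 protein-coding genes with a promoter peak (21.6%) had a member there, 62 of them with 2 members and 4 with 3. The number of members per chromosome ran from 95 on chromosome 18 to 339 on chromosome 11, or 11.5% to 15.8% of each chromosome's promoter peaks.

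The level of a peak was its normalised read count (CPM), the count scaled by library total and TMM factor. Since detection in every library chose the members, their levels are a description. The mean over 56 libraries ran from 11.7 to 322 CPM (median 58.4) for members, and other autosomal peaks had a median of 1.39 and a highest value of 131 CPM. Of the 500, 1000, 2000 and 5000 autosomal peaks of highest level, 483, 929, 1706 and 3115 were members. Promoter members had a median of 61.0 CPM and distal members one of 40.7.

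Just inside the rule, the members of lowest mean level were the promoters of Stk10 (11.7 CPM), Acsf2 (12.7), Tgm1 (13.3), Sh3bp1 (13.7) and Perp (14.1), each with exactly 1 count in 9 to 11 libraries. Just outside it, the promoters of Fam76b (131 CPM), Yy1 (121), Tmem60 (121), Cyth2 (118) and Hspa5 (116) had no count in 1 library each. Levels on the 2 sides overlapped widely.

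The peak of highest level, at 322 CPM, lay in an untranslated exon of Lars2, a mitochondrial leucyl-tRNA synthetase, at chr9:123461848-123462148, at −16708 bp from the TSS of Limd1. It had a near-copy (at least 95% identity over at least 150 bp) at 1 other place in the genome, so its counts are uncertain. The next 9 were promoters, from 211 to 176 CPM. They belonged to Hjurp, which loads the centromeric histone CENP-A, Dnpep, an aspartyl aminopeptidase, Mtmr4, a phosphoinositide phosphatase, Khsrp, an RNA-binding protein of mRNA decay, Fkbp2, an ER prolyl isomerase, Csnk1g2, a casein kinase, Mob3a, Ap2a1, a subunit of the clathrin adaptor, and Brpf1, a scaffold of histone acetyltransferases. None of these 9 had a near-copy. Among all members 39 had one, of which 11 lay at histone genes, and no member matched mitochondrial DNA or the annotated ribosomal RNA. The annotation holds ribosomal RNA in part, so a match to the rest was not tested.

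The distal members of highest level besides the Lars2 peak were an intergenic peak at −52201 bp from Wnt7b (172 CPM), one at −1151 bp from Fbrs (148), and intronic peaks of Clec11a (147), Phf19 (140), Ywhaz (121) and Mnt (119). The distal peak of highest level with the CTCF consensus lay at −76830 bp from the TSS of Chd2 (94.3 CPM). Of the 382 distal members 154 lay within 5 kb of a TSS and 9 beyond 50 kb, with a median distance of 6704.5 bp.

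Members were rich in GC and CpG. Their median GC content was 65.4%, against 50.5% for all peaks and 60.5% for all promoter peaks, and the median ratio of observed to expected CpG was 0.845, against 0.215 and 0.633. The contrast held within distal peaks, where members had 59.8% GC and a CpG ratio of 0.491, against 49.8% and 0.203 for all distal peaks. Only 3 members were more than 50% repeat-masked, as were 5.95% of all peaks.

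Motifs were searched as exact letters on both strands, and a match is a description of sequence, not a bound site. The GC box (GGGCGG) was in 83.4% of promoter members and 47.9% of all promoter peaks, and in 47.4% of distal members and 7.47% of all distal peaks. The ETS motif CCGGAAG was in 23.5% of promoter members and 11.1% of all promoter peaks, and in 12.3% of distal members and 2.20% of all distal peaks. CCAAT was in 48.7% of promoter members (31.8% of all promoter peaks), the NRF1 motif GCGCATGC in 6.68% (3.14%), the CRE TGACGTCA in 4.36% (2.11%), the E-box CACGTG in 12.8% (8.42%) and the YY1 motif AAGATGGC in 5.97% (3.34%). GC-rich motifs occur more often in GC-rich DNA, and the part of base composition was not tested. The ETS and PU.1 motifs share the letters GGAAG and differ in the base before them, so a match to one is no match to the other at that place.

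Several other motifs were less frequent in promoter members than in all promoter peaks. The RUNX motif TGTGGT was in 10.1% of promoter members and 16.3% of all promoter peaks, the GATA motif AGATAA in 2.47% and 6.18%, the C/EBP motif TTGCNNAA in 6.71% and 9.14%, and the AP-1 motif TGANTCA in 2.97% and 5.99%. TATAAA was in 3.53% and 5.35%, while the PU.1 motif GAGGAAGT was close, in 3.43% and 3.93%. The part of base composition in these differences was not tested either. In distal members, PU.1 (10.2% against 7.07% of all distal peaks) and C/EBP (16.8% against 13.7%) were slightly more frequent, GATA was less frequent (6.28% against 13.2%), and the CTCF consensus was in 2.62% (2.17%).

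**Figure D1:**
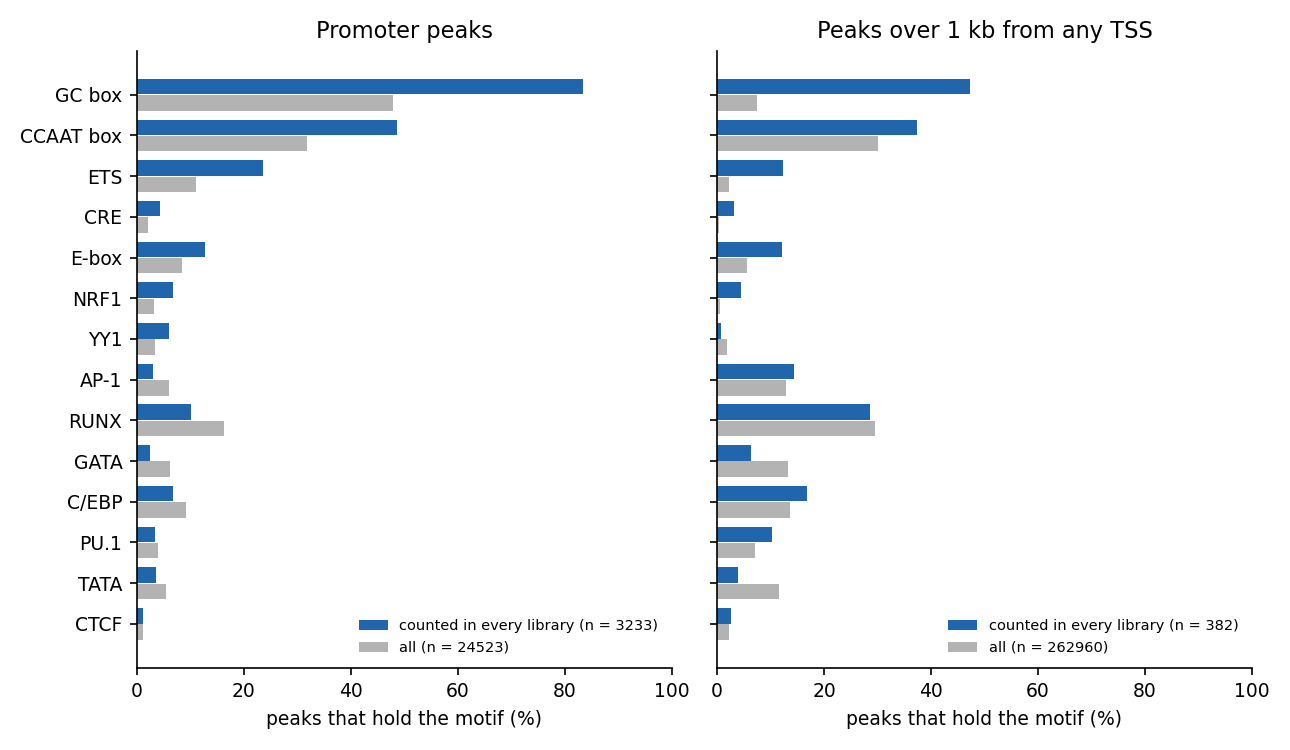
Percentage of peaks that hold each searched motif, for promoter peaks on the left and peaks over 1 kb from any TSS on the right, with members in blue and all peaks of that place in grey. The GC box is the most frequent motif in both kinds of member, in 83.4% of promoter members and 47.4% of distal members.

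Genes with a member were read from 18 lists. Among housekeeping lists, 35 of 50 splicing factors with a promoter peak had a member (Sf1 at 143 CPM, Ptbp1 at 134), 20 of 29 chaperones (Dnajb1 at 143, Hspa8 at 142), 19 of 40 translation factors (Eif5a at 128, Pabpc1 at 127), 35 of 77 cytosolic ribosomal proteins (Rpl13a at 113, Rpl37 at 101), 23 of 74 nuclear respiratory chain genes (Uqcrq at 119) and 8 of 32 proteasome subunits (Adrm1 at 82.2). The lists on nuclear regulation had 17 of 56 for RNA polymerase II and Mediator, 28 of 59 for chromatin regulators (Stag1 at 120) and 9 of 17 for DNA methylation enzymes and readers (Mbd3 at 143, Dnmt1 at 62.8). Cell cycle and replication genes had 21 of 44 (E2f3 at 127), aminoacyl-tRNA synthetases 5 of 19 and immediate early and stress genes 21 of 30 (Jund at 128, Ddit3 at 109). The background was 21.6% of all protein-coding genes with a promoter peak.

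Lists of lineage and tissue genes had fewer. Of 38 granulocyte and monocyte genes 3 had a member, the promoters of Cebpb (26.4 CPM) and Spi1 (23.4 CPM), which encodes PU.1, among them. The promoters of Cebpa (89.6 CPM), Cebpd (48.1) and Ncf4 (40.6) missed membership through 1 library each. Of 30 stem and early progenitor genes, Runx3, Cbfb, Ikzf1 and Etv6 had a member. Those of Lyl1 (75.2 CPM) and Flt3 (43.6) missed through 1 library each and that of Sox4 (47.4) through 2. Housekeeping promoters such as that of Psmd8 (77.9) also missed through 1 library. None of 20 lymphoid markers and none of 21 genes of other tissues had one, and of 15 erythroid and megakaryocyte markers Zfpm1 (142 CPM) and Tfrc (79.5), the transferrin receptor that dividing cells also use, did. All 38 granulocyte and monocyte genes had a promoter peak in the peak set. Cytokine receptors and signalling stood on the other side of the background, with 14 of 31 (45.2%), among them Stat3 (158 CPM), Csf2ra (109), which encodes the alpha chain of the GM-CSF receptor, and the kinase gene Pim1 (108).

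The members, 1.27% of autosomal peaks, took 15.9% to 29.7% of the autosomal counts of a library. Their share was 24.1% ± 0.99 in GM-CSF Tet2 KO lines and 22.6% ± 1.19 in GM-CSF control lines (SD, n = 4 each), and 25.4% ± 3.52 in SCF Tet2 KO lines and 23.3% ± 3.08 in SCF control lines (SD, n = 24 each). Promoter members carried 89.8% of the counts in members. The 4 groups overlapped.

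In SCF clones the share was higher in the Tet2 KO line in 17 of 24 pairs, by 2.13 percentage points on average (SD of the pair differences 4.33). The p was 0.0259 in a two-sided sign-flip permutation test and 0.133 after Benjamini-Hochberg adjustment over 32 share tests, so it did not pass at 0.05. With a set defined from the 8 GM-CSF libraries alone, which the comparison does not use, the difference was 2.10 points (permutation p = 0.0342, adjusted 0.133). Clones 1 to 18 gave 1.497 points (permutation p = 0.153) and clones 23 to 29 gave 3.66 points (exact permutation p = 0.12), and their difference, 2.16 points, had a permutation p of 0.273.

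As a share of promoter counts the change passed the adjustment. Promoter members took 51.0% ± 2.02 of the counts in all promoter peaks in SCF Tet2 KO lines and 48.6% ± 2.69 in SCF control lines (SD, n = 24 each), higher in 19 of 24 pairs and by 2.46 points on average (permutation p = 0.0005, adjusted 0.0147). These members were chosen with counts of the same SCF libraries. With the 3653 promoter peaks counted in all 8 GM-CSF libraries in their place, the difference was 2.35 points, higher in 19 of 24 pairs (permutation p = 0.00092, adjusted 0.0147). In GM-CSF clones the same share was 55.8% ± 4.21 in Tet2 KO lines and 50.9% ± 2.49 in control lines (SD, n = 4 each), higher in 4 of 4 pairs, with an exact permutation p of 0.12, the smallest that 4 pairs allow. Those libraries set the membership, through the Tet2 KO lines of clones 19 and 20, so their values carry the selection. With the promoter peaks counted in all 48 SCF libraries in their place, the difference was 0.858 points, higher in 3 of 4 pairs (exact permutation p = 0.5).

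Over all autosomal counts the GM-CSF pairs differed by 1.53 points, higher in the Tet2 KO line in 2 of 4 (exact sign-flip p = 0.5), and by −0.55 points with a set defined from the SCF libraries alone (exact p = 0.875). The difference of the Tet2 effect between GM-CSF and SCF clones was −0.60 points (exact permutation p = 0.788). GM-CSF minus SCF was −1.33 points in Tet2 KO lines (exact permutation p = 0.487) and −0.73 points in control lines (exact permutation p = 0.640). With sets defined from the lines of the other genotype, it was −5.65 points in Tet2 KO lines (exact permutation p = 0.0418, adjusted 0.133) and −1.25 points in control lines (exact permutation p = 0.461). Over promoter counts it was 4.83 points in Tet2 KO lines and 2.37 points in control lines, given as a description because the GM-CSF libraries set the membership. With promoter peaks set from the lines of the other genotype it was −0.53 points in Tet2 KO lines (exact permutation p = 0.638) and 1.66 points in control lines (exact permutation p = 0.234).

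No relation between the share and library totals passed in either SCF group. Pearson's r was 0.133 (permutation p = 0.517) and Spearman's rho −0.068 (permutation p = 0.752) over 24 SCF Tet2 KO libraries, and r was −0.155 (permutation p = 0.467) and rho −0.105 (permutation p = 0.621) over 24 SCF control libraries. The adjusted p over the 2 relations was 0.517 for both values of r and 0.752 for both values of rho. Without the 2 libraries farthest from the median total, r was 0.0525 and −0.0685. GM-CSF groups were too small for this. Depth is only 1 property of a library. The lowest share (15.9%, SCF Tet2 KO line of clone 9) came with 31.2% of the library's counts in promoter peaks. The highest (29.7%, SCF control line of clone 4) came with 48.5%. Promoter members belong to both values, and the part of library quality in the share was not tested.

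**Figure D2:**
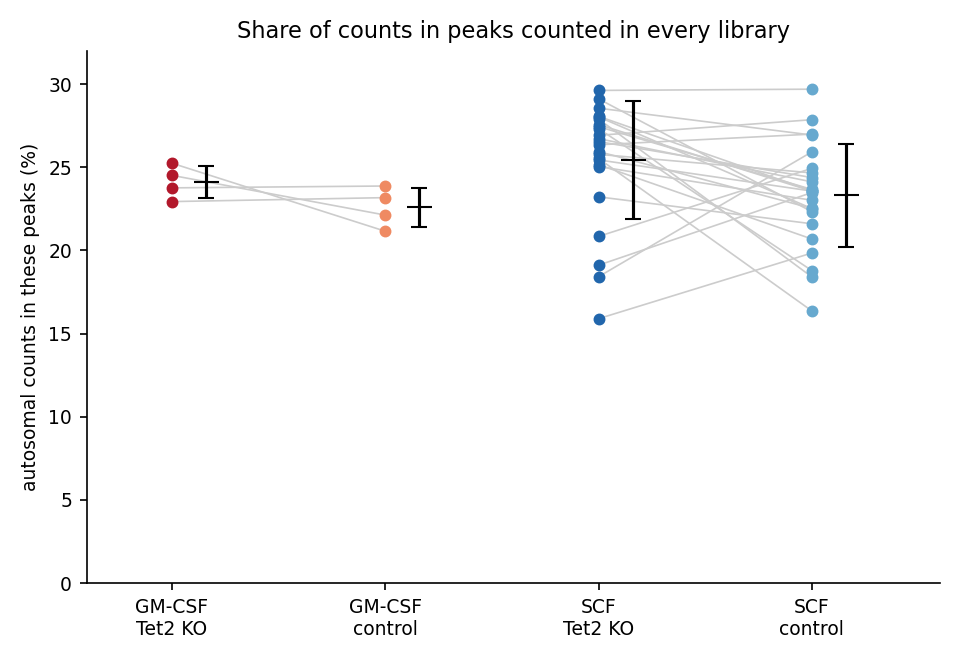
Percentage of each library's autosomal counts that lies in the 3723 members, with 1 point per library, grey lines joining the lines of a clone, and the mean and SD beside each group. Shares lie between 15.9% and 29.7% and the groups overlap, with the Tet2 KO line higher in 17 of 24 SCF pairs.

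Between SCF control lines, the spread of promoter members was slightly above that of other promoter peaks, and that of distal members below that of other distal peaks. The excess coefficient of variation, the spread left after the counting variance is taken off, had a median of 0.136 over 24 SCF control lines for members. It was 0 for 843 members (22.6%), against 26.9% of the other autosomal peaks tested. In SCF Tet2 KO lines the median of members was 0.155. The other autosomal peaks tested had a median of 0.133 in SCF control lines, and the promoter peaks among them 0.123. Over members, the correlation of sister lines across the 24 SCF clones, on the log2 scale and given as a description, had a median of 0.05, and 58 members (1.56%) exceeded 0.5, against 3.67% of the other autosomal peaks tested. Among distal peaks, 1.83% of members and 6.58% of the others tested exceeded 0.5. A level that a clone keeps in both its lines was thus rarely seen in members at the depth of these libraries.

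Clones 9, 25 and 28 set apart the peak with the highest sister correlation. At the intergenic peak at −3063 bp from the TSS of Igf2bp3, an RNA-binding protein of fetal and stem cells, the Tet2 KO lines of clones 9, 25 and 28 had 4.66, 5.80 and 7.12 CPM and their control lines 19.2, 4.80 and 5.54. In the other 21 clones Tet2 KO lines ran from 37.7 to 131 CPM and control lines from 32.6 to 103, with no overlap. The correlation was 0.84 over 24 clones and 0.18 over the 21. At the promoter of Tmem218 (r = 0.73), a ciliary membrane protein, clone 18 was lowest in both lines, with 2.30 CPM in the Tet2 KO line and 3.80 in the control line, against medians of 49.4 and 44.8. At Pdpk1, a kinase upstream of AKT, an intergenic peak had r = 0.75 over 24 clones and 0.64 without the 3 lowest.

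The largest excess spread between SCF control lines was at an intronic peak of Tpst2, a tyrosylprotein sulfotransferase (0.496), where control lines ran from 3.18 to 79.5 CPM with a median of 18.4. Its highest value was in clone 4, one of the shallow clones, and the Tet2 KO lines had no excess spread. The promoters of Nr3c1, the glucocorticoid receptor (0.437), Bscl2 (0.434), Lin54 (0.408) and Kmt2e (0.404) and a peak at the U3 gene Rnu3b3 (0.435) came next, and the highest value was again in clone 4 for Nr3c1, Lin54 and Kmt2e. Among the 843 members with an excess of 0, the promoters of Emc10, Hmga1, Rps21, Plec, Capza2 and Trappc9 had the smallest coefficient of variation before the counting variance was taken off. Emc10 ran from 64.8 to 108 CPM in SCF control lines, but from 30.1 to 163 in SCF Tet2 KO lines, where the excess was 0.268.

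**Figure D3:**
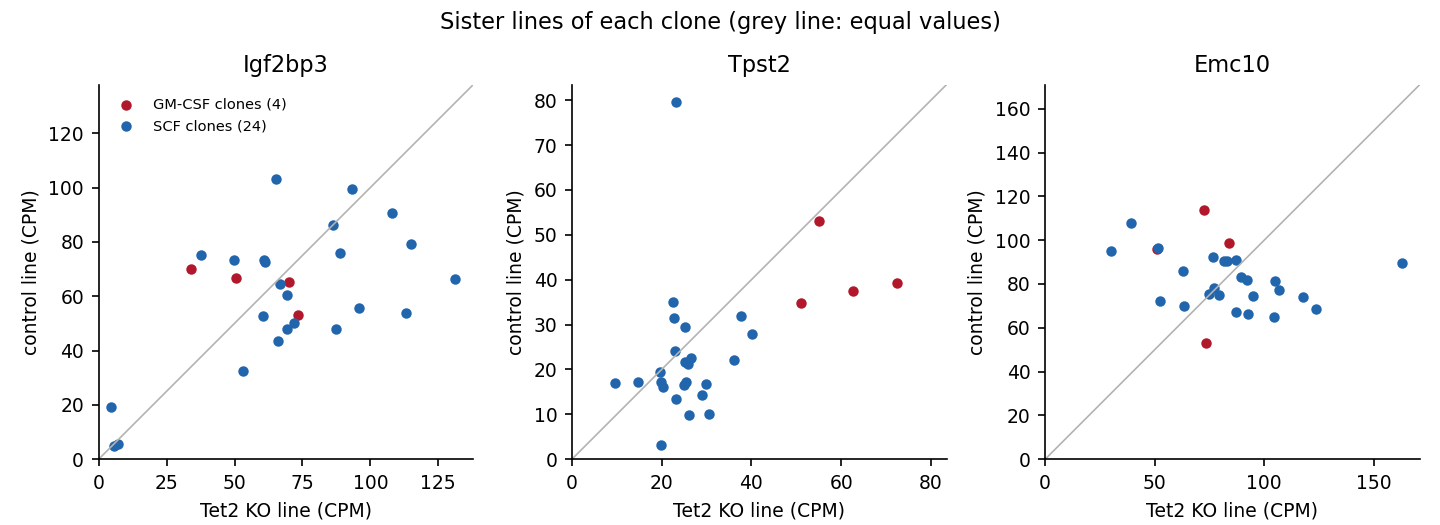
CPM of the Tet2 KO line against the control line of each clone for 3 members, with SCF clones in blue, GM-CSF clones in red and equal values on the grey line. At Igf2bp3 clones 9, 25 and 28 lie near the origin, at Tpst2 a single control line reaches 79.5 CPM, and at Emc10 control lines stay between 64.8 and 108 CPM in SCF.

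Loss of Tet2 in SCF clones moved members upward, by small amounts and mostly where they were already high. Of 3547 members that passed the filter on low counts, 161 (4.54%) rose and 5 (0.141%) fell at an adjusted p at or under 0.01, with the clone as a block. The background over all 7871 peaks tested was 2.21% risen and 0.28% fallen, and the 4324 other peaks had 13 risen and 17 fallen. Risen and fallen members differed by 0.24 to 0.46 on the log2 scale in size (median 0.30). A risen member was higher in the Tet2 KO line in 15 to 23 of 24 pairs, with a median of 19. The median SE was 0.09 for members and 0.12 for others, and its part in the counts was not tested.

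The change followed the level of the peak. With members split into quartiles by their mean CPM in the GM-CSF libraries, which this comparison does not use, the median log2 fold change was −0.04, −0.01, 0.04 and 0.14 across quartiles, low to high, and 35.3%, 47.0%, 64.2% and 88.5% of members were above 0. The numbers risen were 1, 3, 7 and 150. Over the 3547 members, level and change had a Pearson's r of 0.52 (a description, since peaks share libraries). Other autosomal peaks in the quartiles set by the members' mean CPM over all libraries followed the same order, with medians of −0.07, −0.02, 0.04 and 0.10. Across quartiles of GC content the medians were 0.00, 0.03, 0.05 and 0.06, and across quartiles of the CpG ratio 0.05, 0.05, 0.04 and 0.01.

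Most pairs had that slope. The median change of the highest quartile minus that of the lowest was above 0 in 21 of 24 SCF pairs, with a lowest value of −0.28, a median of 0.17 and a highest of 0.48. It was above 0 in 15 of the 17 pairs of clones 1 to 18 and in 6 of the 7 of clones 23 to 29. Pairs with a larger slope also had a larger rise in the share of counts in members (r = 0.75 over 24 pairs, a description, since both come from the same counts). Of the 4 GM-CSF pairs 2 were above 0, those of clones 21 (0.34) and 22 (0.22), with quartiles taken from the SCF libraries. The pairs of clones 19 (−0.69) and 20 (−0.38), whose Tet2 KO libraries were the shallowest, were below 0. With the share of a library's counts in promoter peaks as a covariate, 58 members rose and 3 fell, and the quartile medians were −0.04, −0.00, 0.03 and 0.12.

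Without the clone block 47 members rose and 2 fell. In clones 1 to 18 alone 60 rose and none fell (edgeR, 728 at an unadjusted p under 0.05), and in clones 23 to 29 alone none passed (edgeR, 347 of 3514 at an unadjusted p under 0.05).

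Pkn2, a serine/threonine protein kinase, had the largest rise. Its promoter peak had 60.6 to 279 CPM (median 170) in SCF Tet2 KO lines, against 64.4 to 248 CPM (median 121) in SCF control lines. The groups overlapped, while 23 of 24 pairs were higher in the Tet2 KO line, by 0.46 ± 0.07 on the log2 scale (edgeR, SE; adjusted p = 4.87e-08). Clic4, an intracellular chloride channel protein, had a median of 160 CPM in SCF Tet2 KO lines and 98.6 in SCF control lines, higher in 20 of 24 pairs (0.44 ± 0.07). Wipi1, a phosphoinositide-binding protein of autophagy, had a median of 197 CPM in SCF Tet2 KO lines and 136 in SCF control lines, higher in 21 pairs (0.44 ± 0.06).

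The other risen members of largest size were the promoters of Fzr1, a cofactor of the anaphase-promoting complex (0.40 ± 0.07), Dusp2, a MAP kinase phosphatase (0.39 ± 0.07), Garnl3 (0.37 ± 0.07), Kpnb1, importin beta (0.37 ± 0.07), Myh9, a nonmuscle myosin heavy chain (0.37 ± 0.07), Zbtb2 (0.37 ± 0.08), Bhlhe40, a basic helix-loop-helix repressor (0.37 ± 0.09), Nmt2, an N-myristoyltransferase (0.36 ± 0.07), and Add3, an adducin (0.36 ± 0.06). All 12 were promoter peaks, the farthest 358 bp from its TSS (Zbtb2). The GC box was in 95.03% of the 161 risen members, against 79.3% of all members. Most risen members were promoters, and of all promoter members 83.4% held it. CCAAT was also more frequent in risen members (54.7%) than in promoter members (48.7%). The ETS motif (13.0% against 23.5%) and the YY1 motif (1.24% against 5.97%) were less frequent. The parts of place and level in these differences were not tested. Among distal members 6 rose and 1 fell of 318, including the Wnt7b peak, which had a median of 200 CPM in SCF Tet2 KO lines and 138 in SCF control lines (log2 0.36).

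The fallen members were the Lars2 peak and the promoters of Uqcc1, an assembly factor of respiratory complex III, Surf6, a nucleolar protein of ribosome assembly, Srsf1, a splicing factor, and Aimp2, a scaffold of the aminoacyl-tRNA synthetase complex. Uqcc1 had 24.9 to 62.0 CPM (median 41.0) in SCF Tet2 KO lines, against 28.8 to 71.6 CPM (median 53.7) in SCF control lines. The Tet2 KO line was higher in 5 of 24 pairs, with a log2 fold change of −0.43 ± 0.10 (edgeR adjusted p = 0.00175). Surf6 had a median of 46.8 CPM in SCF Tet2 KO lines and 59.7 in SCF control lines (−0.39 ± 0.10), Srsf1 57.0 in SCF Tet2 KO lines and 60.7 in SCF control lines, higher in the Tet2 KO line in 10 of 24 pairs (−0.36 ± 0.09), and Aimp2 55.7 in SCF Tet2 KO lines and 62.5 in SCF control lines (−0.34 ± 0.09).

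The Lars2 peak stood apart from other high members. It had 203 to 392 CPM (median 324) in SCF Tet2 KO lines, against 192 to 430 CPM (median 346) in SCF control lines, and the Tet2 KO line was higher in 4 of 24 SCF pairs and in 0 of 4 GM-CSF pairs. Its log2 fold change in SCF clones was −0.26 ± 0.06 (edgeR adjusted p = 0.000946), on counts that are uncertain because of its near-copy.

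Of the listed genes, few passed. Members that rose were at Hnrnpf (splicing), Uqcrq (respiratory complex III), E2f3 (cell cycle), Hspa8 (a chaperone), Dusp2 (immediate early), and Csf2ra, Pim1 and Stat3 (cytokine signalling), the last with a log2 fold change of 0.27. Srsf1 fell. No tested member of the ribosomal protein, proteasome, translation factor, tRNA synthetase, RNA polymerase II and Mediator, chromatin, DNA methylation, granulocyte and monocyte or stem cell lists passed.

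**Figure D4:**
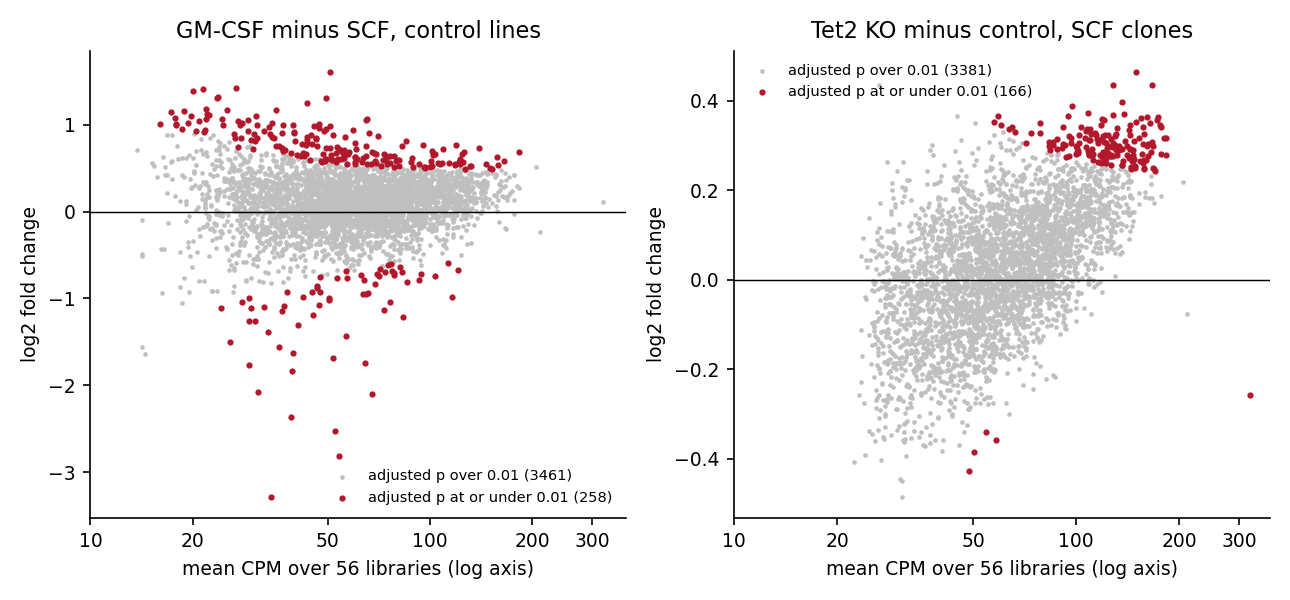
Log2 fold change of each tested member against its mean CPM over 56 libraries (log axis), for GM-CSF minus SCF control lines on the left and Tet2 KO minus control in SCF clones on the right, with called members in red. The Tet2 changes climb with the level and the 161 risen members lie at the right, whereas the cytokine changes spread to both sides at all levels.

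Tet2 loss in GM-CSF clones changed 1 member. Over 12405 peaks tested in 1 fit of all libraries, 0.00806% rose and 0% fell, and of 3714 members 1 rose and 0 fell, with 239 members at an unadjusted p under 0.05. The risen one was the promoter of Pknox1, a homeobox partner of PBX proteins. It had 136, 91.6, 138 and 142 CPM in the Tet2 KO lines of clones 19 to 22, against 122, 42.4, 59.7 and 66.8 CPM in their control lines. All 4 pairs were higher in the Tet2 KO line (log2 1.06 ± 0.21, edgeR adjusted p = 0.0079), and the call was lost without clone 20, 21 or 22 and without the block. In SCF clones its change was 0.12 ± 0.08.

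The 161 members that rose in SCF clones had a median log2 fold change of 0.24 in GM-CSF clones, and 145 were above 0 in the fit. For comparison, the 931 members in the highest quartile of SCF level had a median of 0.14 there, with 74.3% above 0. Counted by pairs, 10 of the 161 were higher in the Tet2 KO line in 4 of 4 GM-CSF pairs, 53 in 3, 77 in 2, 19 in 1 and 2 in none. Whether these counts exceed those of other members was not tested. The median change of the highest quartile of SCF level was −0.72, −0.20, 0.32 and 0.11 in the pairs of clones 19 to 22. Pkn2 had 221, 165, 147 and 159 CPM in the GM-CSF Tet2 KO lines of clones 19 to 22, against 192, 84.9, 103 and 122 in their control lines, and Garnl3 85.1, 91.6, 111 and 82.0, against 52.4, 53.1, 63.4 and 64.1. Both belong to the 10 that were higher in every pair, although Pkn2 in clone 20 rests on 9 counts in the Tet2 KO line and 8 in the control line. The Tet2 effect differed between the cytokines at 0 members (edgeR interaction, adjusted p at or under 0.01; 0% of all 12405 peaks each way), and 153 of 3714 members (4.12%) had an unadjusted p under 0.05.

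GM-CSF control lines differed from SCF control lines at more members and by larger amounts. Of 3719 members tested 192 (5.16%) rose and 66 (1.77%) fell, against 4.88% and 9.84% of all 13171 peaks tested. A peak that GM-CSF libraries lack cannot be a member, so the rule itself limits how far members can fall. The balance was 137 risen and 87 fallen with upper-quartile scaling, and 89 and 55 with DESeq2, which changes the model as well as the scaling. The median log2 fold change of members was 0.12, against −0.08 for other peaks, and was positive for 2431 members, but for only 969 of 3723 when peaks of low count were kept and the TMM factors shifted. Without clone 22 the calls were 44 risen and 25 fallen, and without clone 21 118 and 42.

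In Tet2 KO lines 142 (3.87%) of 3669 members rose and 50 (1.36%) fell with GM-CSF, against 2.76% and 7.45% of all 9670 peaks tested. DESeq2 gave 48 and 31. Without clone 21 the calls were 27 risen and 18 fallen, and without clone 22 43 and 16. Of the called members 91 passed in both lines of the clones, all in the same direction, which is 35.3% of the calls in control lines and 47.4% of those in Tet2 KO lines. Both contrasts rest on the same 4 GM-CSF clones, so a trait of a clone and an effect of the cytokine cannot be told apart.

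A larger share of distal than of promoter members was called, a difference that was not tested. In control lines 35 of 381 distal members rose and 16 fell (9.19% and 4.2%), against 145 and 45 of 3230 promoter members (4.49% and 1.39%). Peaks outside the set had the same order, with 7.65% risen and 24.6% fallen of distal peaks and 2.77% and 5.07% of promoter peaks. Complete separation was rare: in 6 members all 4 GM-CSF control lines lay above all 24 SCF control lines and in 15 below, or 0.161% and 0.403% of members, against 0.699% and 1.94% of all peaks tested.

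The largest rise was in an intron of Adssl1, an adenylosuccinate synthase of the purine nucleotide cycle, 9390 bp from its TSS. It had 113, 84.9, 118 and 124 CPM in the GM-CSF control lines of clones 19 to 22, against 16.0 to 110 CPM (median 43.1) in SCF control lines. Clones 19, 21 and 22 lay above all SCF control lines and clone 20 lay within their range (log2 1.60 ± 0.16, edgeR adjusted p = 5.85e-15). The top of that range was clone 3 alone, and the next SCF control line, that of clone 1, had 60.8 CPM. In GM-CSF Tet2 KO lines the Adssl1 peak had 68.1, 91.6, 129 and 118 CPM, against 7.12 to 74.4 (median 40.2) in SCF Tet2 KO lines (1.66 ± 0.19).

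The other rises of largest size included the promoters of Tmem40 (1.42 ± 0.22), Sos2, a RAS exchange factor (1.41 ± 0.25), Gm29427, in the glycolytic regulator gene Pfkfb2 (1.31 ± 0.24), Dstn, an actin-depolymerising factor (1.30 ± 0.16), Vsir, an immune checkpoint receptor (1.18 ± 0.28), and Klf11, a zinc finger factor (1.17 ± 0.20). Dstn had 122, 95.5, 85.8 and 92.2 CPM in GM-CSF control lines, against 20.7 to 62.1 CPM (median 40.9) in SCF control lines, with no overlap. A peak near Gm43592 (1.17 ± 0.25) and one at −14417 bp from Serpinb2, a serpin of macrophages (1.15 ± 0.28), also rose.

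Peaks at small nuclear RNA genes, a group chosen after its values were seen, were among the largest rises. Of 12 members within 1000 bp of such a gene, whose RNAs form the core of the spliceosome, 6 rose and 1 fell in control lines (median log2 0.74) and 8 rose in Tet2 KO lines (median 1.10). In SCF clones 0 of the 7 tested changed with Tet2 loss (median 0.07). Rnu2-10, a U2 gene, had 96.0, 42.4, 50.4 and 41.4 CPM in GM-CSF control lines, against 4.91 to 35.4 CPM (median 21.4) in SCF control lines, with no overlap (1.31 ± 0.23). Gm25939 (1.39 ± 0.26) and Rnu5g, a U5 gene (1.25 ± 0.19), were also among the 12 largest rises. Small nuclear RNA genes occur in many similar copies, and although these 3 peaks had no near-copy under the limits above, counts at the genes themselves are uncertain.

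The largest fall was an intergenic peak 86854 bp from Psat1, the stretch with 2 GATA sites. It had 17.5, 10.6, 1.87 and 1.34 CPM in the GM-CSF control lines of clones 19 to 22, from 2, 1, 1 and 1 counts, against 8.36 to 66.9 CPM (median 33.5) in SCF control lines. The groups overlapped at the shallow clones 19 and 20, where 1 count is worth about as much as the lowest SCF value (log2 −3.28 ± 0.45, edgeR adjusted p = 2.14e-09). The count of at least 1 that the rule demands sets a floor to these values.

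Fyn, a SRC family kinase, had 8.73, 31.8, 5.60 and 5.35 CPM at its promoter in GM-CSF control lines, against 25.1 to 89.4 CPM (median 57.6) in SCF control lines. Clone 20, with 3 counts, overlapped the SCF range and the others lay below it (log2 −2.81 ± 0.32). Cbfa2t3, a corepressor of blood stem cells and progenitors, had 8.73, 21.2, 5.60 and 9.35 CPM, against 8.36 to 84.6 CPM (median 55.9) in SCF control lines, where the lowest value rests on 1 count (−2.52 ± 0.31). Clone 21 alone lay below the SCF range. Rfx3, a factor of cilia genes, had 8.73, 10.6, 18.7 and 13.4 CPM, against 42.3 to 129 CPM in SCF control lines, with no overlap (−2.10 ± 0.26).

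Further falls were at an intron of Nsmce1, a subunit of the SMC5/6 complex (−2.37 ± 0.34), at the promoters of Mapt (−1.84 ± 0.33), Dusp4, an ERK phosphatase (−1.76 ± 0.35), Epop, a partner of Polycomb complex PRC2 (−1.62 ± 0.28), and Six5, a homeobox factor (−1.56 ± 0.31), and at distal peaks near Adamts14 (−2.07 ± 0.39), Zfp36l2 (−1.74 ± 0.25) and Lmo4 (−1.69 ± 0.26). GATA motifs were in 10.6% of the 66 fallen members and RUNX motifs in 21.2%, against 2.87% and 12.2% of all members. In the 192 risen members they were in 5.73% and 16.7%. Distal peaks made up 16 of the 66 fallen and 35 of the 192 risen members, and all distal members held these motifs in 6.28% and 28.5%. The part of place was not tested.

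**Figure D5:**
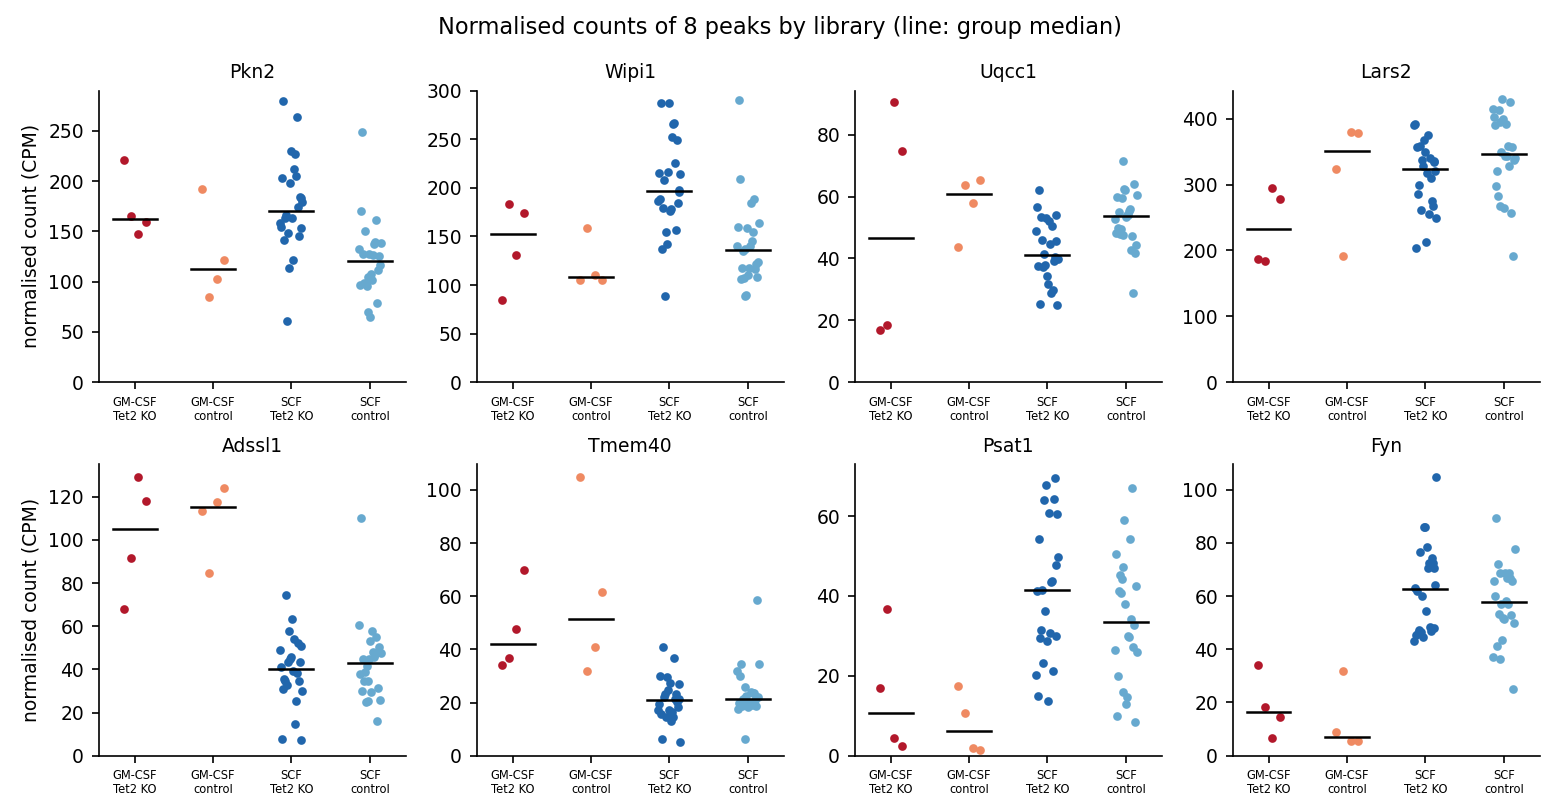
CPM of 8 named members in every library, in the order GM-CSF Tet2 KO, GM-CSF control, SCF Tet2 KO and SCF control, with 1 point per library and a line at the group median. Pkn2 and Wipi1 have higher medians in SCF Tet2 KO lines (170 and 197 CPM) than in SCF control lines (121 and 136), Uqcc1 and Lars2 lower ones, and Adssl1 and Tmem40 lie higher and Psat1 and Fyn lower in GM-CSF.

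Among listed genes, members that rose in GM-CSF control lines were at Rpl15, Hnrnpa2b1, Hnrnpc, Chd8, Ndufs7, E2f3, the chaperone partner Bag3, Klf2, the myeloid factor Cebpb (log2 0.89 ± 0.22), and the cytokine signalling genes Ptpn6 (0.97 ± 0.20), a phosphatase, and Socs1 (1.01 ± 0.18), an inhibitor of JAK kinases. Those that fell were at Psmd3, Kmt2a (−0.74 ± 0.19), a histone methyltransferase, Dnmt1 (−0.73 ± 0.21), the maintenance DNA methyltransferase, Dnaja1 and Runx3 (−1.43 ± 0.25), a RUNX factor of lymphoid and myeloid cells. In Tet2 KO lines Bag3, Cebpb, Ptpn6 and Socs1 rose and Kmt2a and Runx3 fell as well, Srsf10, Med11 and Kat8 also rose, and Egr1, an immediate early factor, fell (−1.13 ± 0.29). Spi1 had log2 fold changes of −0.23 ± 0.37 in Tet2 KO lines and 0.02 ± 0.28 in control lines and did not pass.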

How the data were processed

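Bulk ATAC-seq counts of 56 libraries from 28 clones were analysed. The authors deposited unnormalised counts for each peak in each library. Their processing notes name Bowtie2, SAMtools, Picard and mm10, at versions the sources do not state. The peak set joined MACS2 summits of the study's single-cell data with ImmGen peaks. Duplicate removal, and the choice of fragments or cut sites as the unit, are unknown.

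Peak places came from GENCODE vM21 basic (GRCm38). The test on counts was the edgeR 4.0.16 quasi-likelihood test (R 4.3.3), with TMM factors, filterByExpr (minimum count 10) and Benjamini-Hochberg adjustment over all peaks tested, called at 0.01. log2 CPM used a prior count of 2. DESeq2 1.42.0 was an alternative. Shares were compared by permutation (100000 draws, or all). Near-copies were sought with BLAST 2.17.0+. Scripts were tested on simulated counts.

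Members and gene lists were chosen with earlier results of these data known. Named peaks were the members of highest and lowest level, the highest distal members, the largest called changes (up to 12 each way in Tet2 loss in SCF and in GM-CSF against SCF control lines, up to 5 elsewhere), the 6 most and 6 least variable members, the 5 of highest sister correlation and the 5 non-members of highest level. Genes named from the lists are those called, and up to 4 of highest level per list.

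The lines of a clone are the same cell line by the labels, so the clone was a block. Deviations of sister lines over members correlated at −0.01 to 0.19 (median 0.05) in 24 SCF pairs and at −0.03 to 0.06 in 4 GM-CSF pairs. With other clones the median was −0.002 in SCF and −0.008 in GM-CSF. The Tet2 KO line was closest to its own control line in 7 of 24 SCF clones and 2 of 4 GM-CSF clones.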

Additional observations from a re-analysis of the deposited data

Results flagged for a closer look

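In groups of 4 libraries, 58 were examined for a value far from the other 3, and 5 were found, where chance gives about 1 in 20. At the Rnu2-10 peak, the GM-CSF control line of clone 19 had 96.0 CPM, while the other 3 had 41.4 to 50.4. At the Fyn promoter, the GM-CSF control line of clone 20 had 31.8 CPM, while the others had 5.35 to 8.73. At the distal peak near Lmo4, the GM-CSF Tet2 KO line of clone 20 had 36.6 CPM (others 14.5 to 18.1) and the GM-CSF control line of clone 21 had 26.1 CPM (others 8.73 to 10.7). At the Pknox1 promoter, the GM-CSF Tet2 KO line of clone 20 had 91.6 CPM (others 136 to 142). Of these libraries, those of clones 19 and 20 are shallow, and 2 to 11 counts stand behind the values that stood apart in them.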

How the results depend on the processing

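Of 102 alternative values for the main results, 71 stayed on the same side of the threshold and close in size, and of 559 for named peaks 491 kept their call, 68 lost it and none changed sign. The causes of the changes below were not tested unless fewer samples show them. Calls among members for Tet2 loss in SCF clones (166) became 61 with the promoter share as a covariate, 49 without the replicate block, 60 in clones 1 to 18 and 0 in clones 23 to 29 (fewer samples). The fit without a filter on low counts was not run for this comparison. Calls for GM-CSF against SCF control lines (258) became 144 with DESeq2, 13 without the filter, 165 against clones 23 to 29, 95 with members of at least 2 counts, and 69 to 216 leaving out 1 GM-CSF clone. In Tet2 KO lines (192) they became 79, 11, 119, 84 and 45 to 202 under the same settings. Without the filter the peaks shared by both fits shifted by a median of −0.25 and −0.38 on the log2 scale. The 1 call for Tet2 loss in GM-CSF clones became 0 without the replicate block and 0 to 1 leaving out 1 clone (132 to 302 members at an unadjusted p under 0.05, edgeR). Members numbered 1487 with at least 2 counts. The SCF share difference of 2.13 points was 1.497 in clones 1 to 18 and 3.66 in clones 23 to 29, neither past 0.05. The GM-CSF Tet2 share difference became −0.55 with a set from the SCF libraries (0.679 to 2.12 leaving out 1 clone). GM-CSF minus SCF in control lines became 0.162 with at least 2 counts, 2.37 over promoter counts, 1.66 over promoter counts with a set from the Tet2 KO lines (added after the data were seen) and 0.326 against clones 23 to 29 (−1.16 to −0.254 leaving out 1 clone). In Tet2 KO lines it became 0.101, 4.83 over promoter counts and −5.65 with a set from the control lines, which passed 0.05 unadjusted (−1.70 to −0.933). The difference between cytokines stayed at 0 calls without the replicate block. Depth limits the GM-CSF values, with a median of 2 counts per member in the shallowest libraries.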
